A study of Saccharomyces cerevisiae with 11 samples.

Results

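The RSC complex genes described here are the 10 yeast genes named RSC1, RSC2, RSC3, RSC4, RSC6, RSC8, RSC9, RSC30, RSC58 and STH1. They were chosen by name from the 6834 features counted in each library. All 10 passed the filter on low counts that 5456 features passed, so none was lost. RSC is an essential and abundant chromatin remodeler of budding yeast that uses ATP to slide and evict nucleosomes, and it is known for keeping promoters free of them. Sth1 is its motor, the zinc cluster proteins Rsc3 and Rsc30 read a GC-rich DNA motif, and several other subunits carry bromodomains or bind histones. Abf1, the factor removed in this study, belongs to the general regulatory factors, which bind promoters in a sequence-specific way and act beside RSC in opening them.

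The study asked which parts of Abf1 a cell needs. Its 11 total RNA libraries came from a Saccharomyces cerevisiae anchor-away strain (labelled BY4741, ABF1-aa-V5 clone A9, thus 1 clone), in which 8 µg/mL rapamycin carries the chromosomal Abf1 out of the nucleus. All cells grew to log phase without leucine, kept a pRS315 plasmid (LEU2) and received rapamycin, the wild-type controls included. The plasmid encoded wild-type Abf1 (2 libraries), nothing (no Abf1, 3), EM shuffle (2), LS15 (2) or NCS506 (2). EM shuffle has the essential motif of the second disordered region scrambled and does not support growth. LS15 (another scramble of that region) and NCS506 (that region with random point mutations) support growth, but the paper scored both in its slowest class. The 3 variants also lack the first disordered region that wild-type Abf1 retains. Rapamycin lasted 1.25 h, except for wild-type replicate 1, which was treated for 1 h and belongs to another batch. Its batch, time and culture cannot be told apart.

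Total counts ran from 920044 (LS15 replicate 1) to 2195476, with a median of 1422833, and the members had between 16 and 613 counts per library. The strain label was checked against mating type genes. BY4741 is a mating type a strain, yet the alpha genes MFALPHA1 (241 to 1209 counts) and STE3 (177 to 638) were present in all 11 libraries, whereas the a genes MFA1 (0 to 10), MFA2 (0 to 4), BAR1 (0 to 9) and STE2 (1 to 23) were at or near 0. The label and these genes therefore did not match. FPR1, which anchor-away strains lack, had 1 to 9 counts, and the plasmid marker LEU2 had 211 to 1628.

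The DNA upstream of the members was searched on both strands for the Abf1 consensus, in which a 5-base half-site and ACG enclose 5 free bases. The search covered the 400 bp before each annotated gene start (RefSeq, R64, the build of sacCer3). A match lay before 3 of the 10 members, RSC1, RSC4 and RSC30, compared with 15.8% of 6002 yeast genes. Among the other 7 RSC genes it lay before ARP7 and ARP9, which encode actin-related proteins. The 5 matches are shown because the 2 RSC genes that fell without Abf1 are among them. Capitals mark the half-sites, and each sequence is read 5′ to 3′ on the strand that carries the consensus, which is the minus strand for RSC1 and the plus strand for the others.
RSC4: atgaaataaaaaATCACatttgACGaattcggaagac
ARP9: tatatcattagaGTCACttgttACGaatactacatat
RSC1: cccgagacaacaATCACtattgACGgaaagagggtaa
RSC30: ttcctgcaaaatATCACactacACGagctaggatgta
ARP7: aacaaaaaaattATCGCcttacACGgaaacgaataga
The RSC4 stretch is chrXI:452048-452084, and its match ended 129 bp before the gene. The ARP9 stretch is chrXIII:337622-337658, and its match ended 142 bp before the gene. The RSC1 stretch is chrVII:601478-601514 (159 bp), that of RSC30 is chrVIII:217958-217994 (136 bp) and that of ARP7 is chrXVI:639165-639201 (336 bp). RSC4, RSC1 and RSC30 share the half-site ATCAC, and ARP9 and ARP7 have other allowed forms of it. With 250 bp in place of 400 bp, the same 3 members and ARP9 held a match, against 11.6% of genes.

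Motifs of 2 other promoter factors were also searched within 400 bp. CGCGC, the core of the motif of Rsc3 and Rsc30 themselves, lay before RSC1, RSC2 and STH1 among the members and before ARP7 and ARP9, compared with 15.9% of genes. Its distance to the gene start was 2 bp for STH1, 41 bp for RSC2 and 341 bp for RSC1. TTACCCG, the core of the motif of the general regulatory factor Reb1, lay 146 bp before RSC58 and 163 bp before NPL6, compared with 9.15% of genes. None of these matches overlapped a match to another of the motifs. RSC6, RSC8, RSC9 and RSC3 held none of the 3 in this window. A match describes letters only and does not show that a factor binds there.

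Levels were compared between genes as CPM per kilobase, that is, the share of a library's counts (CPM) scaled between libraries by TMM and divided by gene length. RSC8, a structural core subunit with a SANT domain, was the highest of the 10 members, with a median of 91.9 over the 11 libraries (81.1 to 98.4). LDB7, one of the other RSC genes, had a higher median of 108 (79.7 to 138). Among the members RSC9 followed at 69.7, RSC6 at 65.9 and STH1 at 64.5. These 3 were not separated over all libraries, since RSC9 exceeded RSC6 in 7 of the 11 and RSC6 exceeded STH1 in 4. RSC9 was above RSC6 in all 3 no Abf1 and both LS15 libraries and below it in both EM shuffle libraries. The wild-type and NCS506 libraries were split. RSC2 stood at 43.6, below STH1 in all 11 libraries. RSC58 (36.5), RSC4 (32.5), RSC1 (29.1) and RSC3 (24.3) came next, and RSC30 was lowest at 15.9 (11.3 to 20.3). On the TPM scale the lowest member was RSC30 in 3 libraries, RSC3 in 4 and RSC4 in 4, and RSC8 again had the highest median. RSC8 was above RSC9 and RSC2 above RSC58 in 9 of the 11 libraries, and RSC1 was above RSC3 and RSC3 above RSC30 in 10. RSC4 was above RSC1 in 6 libraries, and this order went with the condition. RSC4 was higher in both libraries of wild-type Abf1, of EM shuffle and of NCS506. RSC1 was higher in all 3 no Abf1 and both LS15 libraries. The order of RSC58 and RSC4 differed between libraries. RSC4 was at 41.6 in both wild-type libraries against 27.2 and 27.3 for RSC58, and RSC58 was above RSC4 in 8 of the 11 libraries. In EM shuffle the order changed between replicates, with RSC58 at 48.7 and 30.0 against 32.5 and 58.2 for RSC4.

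**Figure D1:**
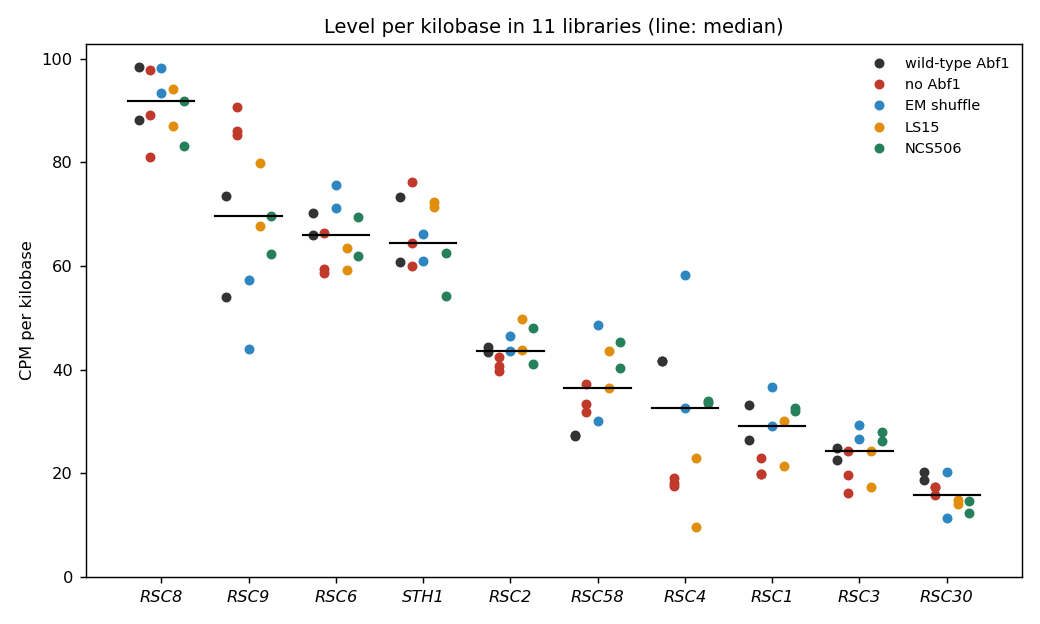
Level of each member in CPM per kilobase (y axis) in the 11 libraries, ordered by the median (black line), with 1 point per library coloured by condition. On this scale RSC8 leads with a median of 91.9, and RSC30, whose counts are uncertain, is lowest at 15.9. RSC4 has the widest range, from 9.58 to 58.2.

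The members varied unequally over the libraries. RSC8 and RSC2 moved least, with a highest library 1.21 and 1.25 times the lowest, followed by RSC6 (1.29) and STH1 (1.41). The SD of log2 CPM over all libraries was 0.10 for both RSC8 and RSC2, and 0.563% and 0.713% of 5327 protein-coding genes had a lower one. This SD also holds counting noise, which is larger for genes with fewer counts. RSC1 (1.85 times), RSC3 (1.80), RSC30 (1.79) and RSC58 (1.79) were intermediate. RSC9 spanned 2.06 times. RSC4 spanned 6.07 times, from 18.0 CPM in LS15 replicate 1 to 109 CPM in EM shuffle replicate 2, with an SD of 0.72, above that of 92.4% of protein-coding genes.

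**Figure D2:**
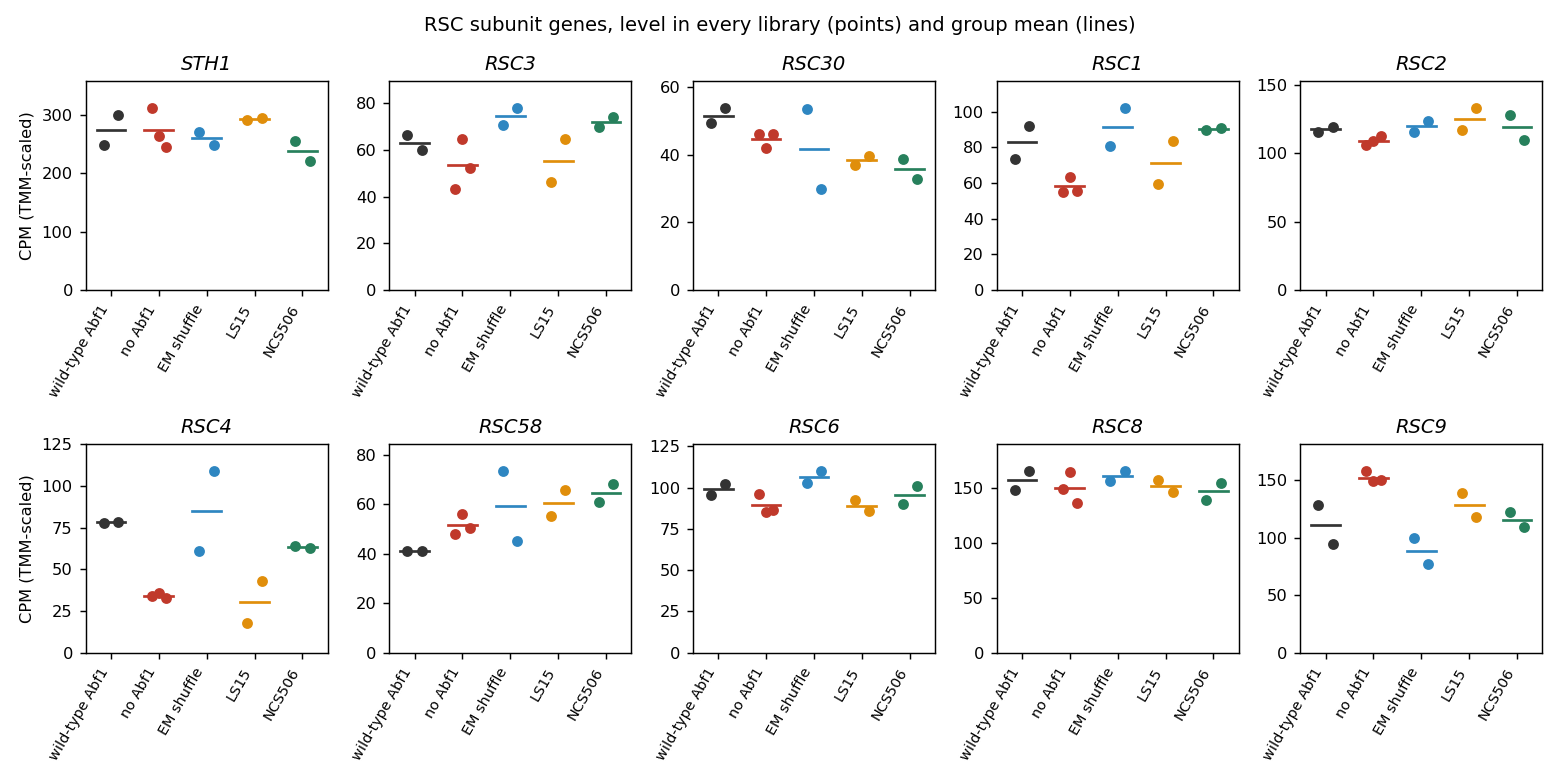
CPM of each of the 10 members (y axis, from 0) in the 5 conditions, with 1 point per library and a line at the group mean. The 3 no Abf1 libraries of RSC4 lie at 32.9 to 35.6 CPM against 78.0 and 78.2 CPM for wild-type Abf1, whereas STH1, RSC2, RSC6 and RSC8 stay within 1.41 times from lowest to highest.

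The first comparison asked what the loss of Abf1 does to the RSC genes. In no Abf1 against wild-type Abf1, 1 of the 10 members, RSC4, fell and none rose, with edgeR's quasi-likelihood test on all features and Benjamini-Hochberg adjusted p under 0.05. Over all 5456 features 23.4% passed, 531 higher and 746 lower, so the members passed no more often than features in general. Their median log2 fold change was -0.12, compared with 0.02 over all features. The libraries of the 2 groups did not overlap for 6 of the 10 members, compared with 56.6% of features. In a bulk culture, fewer cells with a transcript and less of it per cell cannot be told apart. Replicates were set up from independent transformants of the strain, although the labels do not name the transformant of each library.

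STH1 (YIL126W, chrIX:117992-122071, plus strand), the ATPase that drives the remodeler, was at 248 and 299 CPM with wild-type Abf1 and at 311, 263 and 245 CPM without Abf1. The groups overlapped throughout. The log2 fold change was 0.00 (SE 0.16, 95% interval -0.32 to 0.31, edgeR adjusted p = 0.991). This and the later intervals on fold changes are normal approximations and are somewhat too narrow for the test used.

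The zinc cluster paralogs RSC3 (YDR303C, chrIV:1068729-1071386, minus strand) and RSC30 (YHR056C, chrVIII:215183-217834, minus strand) encode the subunits that read CGCGC. RSC3 was at 66.3 and 60 CPM with wild-type Abf1 and at 43.1, 64.6 and 52.4 CPM without. One no Abf1 library thus lay between the wild-type values, and the log2 fold change was -0.24 (SE 0.21, edgeR adjusted p = 0.445). RSC30 was at 49.5 and 53.8 CPM against 46.1, 42.1 and 46.3 CPM. All 3 libraries without Abf1 were lower, but the change was small, -0.21 on the log2 scale (SE 0.24, edgeR adjusted p = 0.571), although an Abf1 consensus match precedes the gene. RSC30 counts are uncertain, because 39.2% of its 50-base stretches also occur in YHR054C, a partial copy beside the CUP1 repeat that was given 0 to 8 counts per library.

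RSC1, RSC2 and RSC4 encode subunits whose bromodomains bind acetylated histone tails. RSC4 (YKR008W, chrXI:452201-454078, plus strand) had 93 and 112 counts in the wild-type libraries and 34, 38 and 32 in those without Abf1. This corresponded to 78.0 and 78.2 CPM against 34.1, 35.6 and 32.9 CPM. Both groups were tight and did not overlap. RSC4 was 2.28-fold lower (log2 fold change -1.19, SE 0.31, edgeR adjusted p = 0.017), and lower in 3 of 3 libraries. The size of the fall was steady, from -1.16 to -1.22 when any of the 5 libraries compared was left out, but the adjusted p then rose to between 0.0504 and 0.0791. Without wild-type replicate 1, which leaves a single batch and rapamycin time, the fall was -1.19 (edgeR adjusted p = 0.0504).

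RSC1 (YGR056W, chrVII:601661-604447, plus strand) was at 73.8 and 92.1 CPM with wild-type Abf1 and at 55.1, 63.7 and 55.5 CPM without. All 3 values without Abf1 were below both wild-type values. The log2 fold change of -0.52 (SE 0.20, 95% interval -0.90 to -0.13) did not pass over all features (edgeR adjusted p = 0.0765), and it passed in a fit of only these 5 libraries (adjusted p = 0.0372). RSC2 (YLR357W, chrXII:841331-844000, plus strand), the paralog of RSC1 that marks a distinct form of the complex, was at 116 and 119 CPM against 106, 109 and 113 CPM. The groups did not overlap, but the difference was -0.10 on the log2 scale (SE 0.15, edgeR adjusted p = 0.659). RSC2 overlaps the antisense feature YLR358C. The library kit was directional, but whether counting used strand is not given, so the reads of both may not be told apart.

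RSC58 (YLR033W, chrXII:208761-210269, plus strand), an essential subunit, was at 41.1 and 41.2 CPM with wild-type Abf1 and at 48.1, 56.2 and 50.4 CPM without. All 3 libraries were higher, by 0.33 on the log2 scale (SE 0.23), which did not pass (edgeR adjusted p = 0.335). In every variant RSC58 was also above both wild-type values, with log2 fold changes of 0.53 for EM shuffle, 0.57 for LS15 and 0.65 for NCS506 and edgeR adjusted p of 0.254, 0.145 and 0.173. These 4 comparisons share the same 2 wild-type libraries.

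Of the core subunits, RSC6 (YCR052W, chrIII:214994-216445, plus strand) was at 95.7 and 102 CPM with wild-type Abf1 and at 96.3, 85.2 and 86.4 CPM without (log2 fold change -0.15, SE 0.15, edgeR adjusted p = 0.503). RSC8 (YFR037C, chrVI:227513-229186, minus strand) was at 148 and 165 CPM against 149, 164 and 136 CPM (log2 fold change -0.06, SE 0.15, edgeR adjusted p = 0.796). The groups overlapped for both genes. RSC9 (YML127W, chrXIII:17064-18809, plus strand), which encodes a subunit with an ARID-like DNA-binding domain, was the member with the largest positive value. It was at 128 and 94.2 CPM with wild-type Abf1 and at 158, 149 and 150 CPM without, so that all 3 libraries without Abf1 were higher. The log2 fold change of 0.46 (SE 0.18) did not pass (edgeR adjusted p = 0.086). Without wild-type replicate 1, the library of the other batch and time, it was 0.69 and passed (edgeR adjusted p = 0.0451), whereas without wild-type replicate 2 it was 0.25 (edgeR adjusted p = 0.50).

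**Figure D3:**
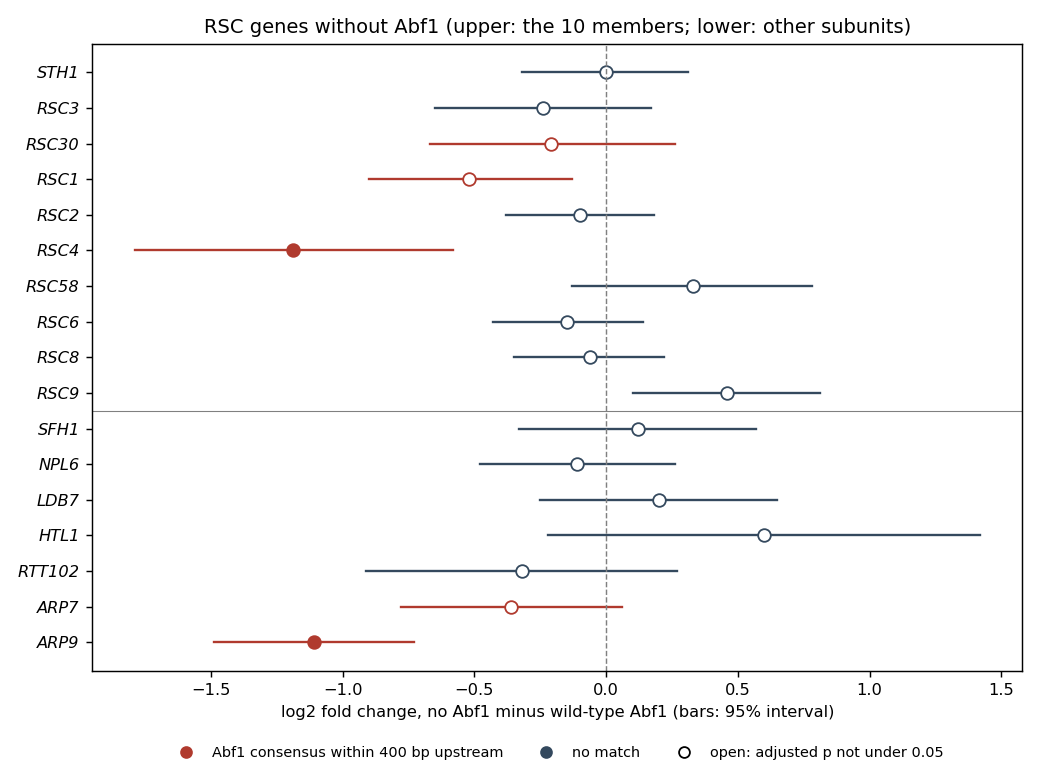
Log2 fold change in no Abf1 against wild-type Abf1 (x axis) for the 10 members (above the line) and 7 other RSC genes (below it). Bars are 95% intervals by a normal approximation, somewhat too narrow for the test used. Filled points passed at an edgeR adjusted p under 0.05 and red marks an Abf1 consensus match within 400 bp upstream. Only RSC4 (-1.19) and ARP9 (-1.11) are filled, both red.

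The other 7 RSC genes behaved similarly as a list, with 1 of 7 lower, none higher and a median log2 fold change of -0.11. The gene that fell was ARP9 (YMR033W, chrXIII:337788-339277, plus strand), whose product pairs with Arp7 on Sth1. It was at 74.7 and 60 CPM with wild-type Abf1 and at 33.1, 25.3 and 35.0 CPM without. The groups did not overlap, and ARP9 was 2.16-fold lower (log2 fold change -1.11, SE 0.19, edgeR adjusted p = 0.00255). Its partner ARP7 (YPR034W) was at 57.9 and 81.0 CPM against 59.2, 48.7 and 55.5 CPM, a log2 fold change of -0.36 that did not pass (edgeR adjusted p = 0.25). SFH1 (0.12), NPL6 (-0.11), LDB7 (0.20), RTT102 (-0.32) and HTL1 (0.60) did not pass either. HTL1 had only 8 to 23 counts per library, and its interval ran from -0.22 to 1.42.

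The 5 RSC genes with a consensus match had log2 fold changes of -1.19 (RSC4), -1.11 (ARP9), -0.52 (RSC1), -0.36 (ARP7) and -0.21 (RSC30), and the 12 without one ran from -0.32 to 0.60. Over the protein-coding genes tested whose upstream window was searched, 45.3% of 905 genes with a match were lower without Abf1 and 3.76% were higher, with a median log2 fold change of -0.60. Of 4404 genes without a match 7.45% were lower and 11.1% higher. The values of the RSC genes with a match thus lay on both sides of that median.

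The genes upstream of the members were read as neighbours. RSC4 follows MEH1 on the same strand, with 212 bp between them, and MEH1 had a log2 fold change of 0.72 in no Abf1 (edgeR adjusted p = 0.10), opposite in sign to RSC4. RSC9 shares a 387 bp divergent promoter region with MSC1, which was higher without Abf1 (log2 fold change 1.62, SE 0.33, edgeR adjusted p = 0.00575). RSC9 had the same sign at 0.46. RSC8 and IRC5, transcribed apart from a 193 bp region, were both close to 0 (-0.06 and -0.05), and RRT14, divergent from STH1 across 347 bp, was at -0.31 (edgeR adjusted p = 0.529). Among the other subunits, ARP7 is divergent from HTS1, the histidyl-tRNA synthetase gene, across 505 bp. The consensus match counted for ARP7, 336 bp before that gene, lies nearer to HTS1. HTS1 fell (log2 fold change -1.67, SE 0.24, edgeR adjusted p = 0.00129). MSC1 was the one upstream neighbour of a member that passed, of the 10 tested.

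The next comparisons asked how far each variant keeps the RSC genes at the wild-type level. In EM shuffle against wild-type Abf1 no member passed with edgeR or DESeq2, while 2.24% of all features passed with edgeR. At an unadjusted p under 0.05 there was 1 member, RSC58, compared with 18.3% of all features. The members' log2 fold changes ran from -0.32 (RSC9) to 0.53 (RSC58), with a median of 0.07. RSC4 was at 61.1 and 109 CPM, on either side of the wild-type values of 78.0 and 78.2 CPM (log2 fold change 0.12, 95% interval -0.47 to 0.71, edgeR adjusted p = 0.883). The 2 EM shuffle libraries also differed for RSC58 (73.5 and 45.2 CPM) and RSC30 (53.6 and 30.0 CPM), by more than replicates of the other conditions did for these genes.

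In NCS506 against wild-type Abf1 no member passed with either tool, while 0.587% of all features passed with edgeR. Again only RSC58 had an unadjusted p under 0.05, compared with 19.1% of all features. RSC4 was at 63.7 and 63.0 CPM, both below the wild-type values, with a log2 fold change of -0.30 (95% interval -0.90 to 0.30, edgeR adjusted p = 0.635). RSC30 had the lowest value, -0.52 (SE 0.25, edgeR adjusted p = 0.282), from 38.7 and 33.0 CPM.

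In LS15 against wild-type Abf1, RSC4 was lower and no other member passed, while 11.2% of all features did. RSC4 had 16 counts in LS15 replicate 1 (exact Poisson 95% interval 9.15 to 26.0, counting error only) and 71 in replicate 2, or 18.0 and 43.3 CPM. Both were below the wild-type libraries, but they lay on either side of the 3 no Abf1 libraries. The log2 fold change was -1.26 (SE 0.34, edgeR adjusted p = 0.0367). It rested on LS15 replicate 1, the shallowest library, without which it was -0.85 (edgeR adjusted p = 0.199). Leaving out either wild-type library, any no Abf1 library or either NCS506 library raised the adjusted p to between 0.0528 and 0.125 at a log2 fold change of -1.26 or -1.27. ARP9 was at 45.0 and 43.3 CPM, between the no Abf1 and wild-type libraries (log2 fold change -0.61 against wild-type, edgeR adjusted p = 0.0731).

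EM shuffle was also compared with no Abf1. RSC4 and RSC1 were higher and RSC9 lower, 3 of 10, which is near the 24% of all features that passed. RSC4 was 2.48-fold higher (log2 fold change 1.31, SE 0.30, edgeR adjusted p = 0.0119), with both EM shuffle libraries above all 3 no Abf1 libraries. RSC1 was at 81.0 and 102 CPM against 55.1 to 63.7 CPM (log2 fold change 0.65, SE 0.19, edgeR adjusted p = 0.0296). RSC9 was at 100 and 76.7 CPM against 149 to 158 CPM, 1.72-fold lower (log2 fold change -0.78, SE 0.18, edgeR adjusted p = 0.012). On the TPM scale RSC9 had the opposite sign, 0.22 on log2(TPM + 1) and 0.30 on log2(TPM + 0.1), where the median of all features was shifted by 0.66 and 1.07. The groups did not overlap for 6 of the 10 members, these 3 among them, compared with 53.2% of features. Without EM shuffle replicate 2 none of them passed, with log2 fold changes of 0.83, 0.48 and -0.61 (edgeR adjusted p of 0.0905, 0.176 and 0.074). RSC1 also did not pass without any one of the no Abf1 libraries (0.61 to 0.72, adjusted p 0.0607 to 0.0939). ARP9 (54.5 and 60.5 CPM, log2 fold change 0.89, edgeR adjusted p = 0.00914) and ARP7 (73.1 and 98.3 CPM, 0.65, edgeR adjusted p = 0.0395) were higher too. The ARP7 call was lost without EM shuffle replicate 2 (0.42, adjusted p = 0.256).

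In NCS506 against no Abf1, no member passed with edgeR or DESeq2, and 3.19% of all features passed with edgeR. At an unadjusted p under 0.05 there were 3 of 10 members, compared with 19% of all features. These 3 were RSC4 (log2 fold change 0.89, edgeR adjusted p = 0.137), RSC1 (0.63, 0.0941) and RSC9 (-0.40, 0.24), the genes that passed for EM shuffle and with the same signs. Both comparisons share the no Abf1 libraries. Of the other subunits ARP9 passed (57.1 and 53.0 CPM, log2 fold change 0.83, SE 0.19, edgeR adjusted p = 0.0392), but it did not when any one of the 5 libraries compared was left out (0.70 to 0.92, adjusted p 0.113 to 0.189).

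In LS15 against no Abf1 neither edgeR nor DESeq2 called a member, none had an unadjusted p under 0.05, and 0% of all features passed with edgeR (6.58% had an unadjusted p under 0.05 and 1 feature passed with DESeq2). RSC4 had a log2 fold change of -0.07 (95% interval -0.74 to 0.60).

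Between the variants, RSC4 was 2.60-fold higher in EM shuffle than in LS15 (log2 fold change 1.38, SE 0.33, edgeR adjusted p = 0.0381), the single member to pass where 5.5% of features did. The call was lost in a fit of only those 4 libraries (1.39, adjusted p = 0.256). Without LS15 replicate 1 or EM shuffle replicate 2 the log2 fold change was 0.97 or 0.89 (adjusted p = 0.228 and 0.183), and it was lost without any no Abf1 or NCS506 library at 1.38 or 1.39 (adjusted p 0.0558 to 0.0703). EM shuffle and NCS506 were not separated, with 0% of features and no member passing (no member at an unadjusted p under 0.05, where 11.5% of features were, and none with DESeq2). For LS15 against NCS506 the share was also 0%, and no member passed with edgeR or DESeq2. There RSC4 alone had an unadjusted p under 0.05, compared with 7.35% of features (log2 fold change -0.96, SE 0.34, edgeR adjusted p = 0.653). RSC4 in NCS506 thus passed against none of the other conditions. The other 9 members did not pass against wild-type Abf1 in any condition in this fit of all libraries.

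The balance within the paralog pairs was computed in each library, so that library scaling cancels. RSC1 was below RSC2 per kilobase in all 11 libraries. The ratio of RSC1 to RSC2 was 0.611 and 0.744 with wild-type Abf1, 0.497, 0.562 and 0.470 without Abf1, 0.667 and 0.788 with EM shuffle, 0.488 and 0.602 with LS15, and 0.669 and 0.793 with NCS506. The 3 ratios without Abf1 were below both wild-type ratios, a difference of -0.41 on the log2 scale. An exact two-sided permutation test of 3 against 2 libraries gave p = 0.20, the smallest value it can give. TPM gave a difference of -0.39.

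For RSC3 over RSC30 the ratio per kilobase was 1.34 and 1.11 with wild-type Abf1 and 0.933, 1.53 and 1.13 without (difference -0.06 on the log2 scale, exact two-sided permutation p = 1, the smallest possible being 0.20). It was highest in EM shuffle replicate 2 (2.59) and NCS506 replicate 2 (2.24). In the TPM values the same ratio was lower in each of the 11 libraries, for example 0.90 and 0.70 with wild-type Abf1. Which of the 2 paralogs had more transcript thus depended on the scale in most libraries. On both scales RSC3 was higher in EM shuffle replicate 2 and both NCS506 libraries, and RSC30 was higher in no Abf1 replicate 1. RSC30 is the member that shares sequence with a partial copy.

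**Figure D4:**
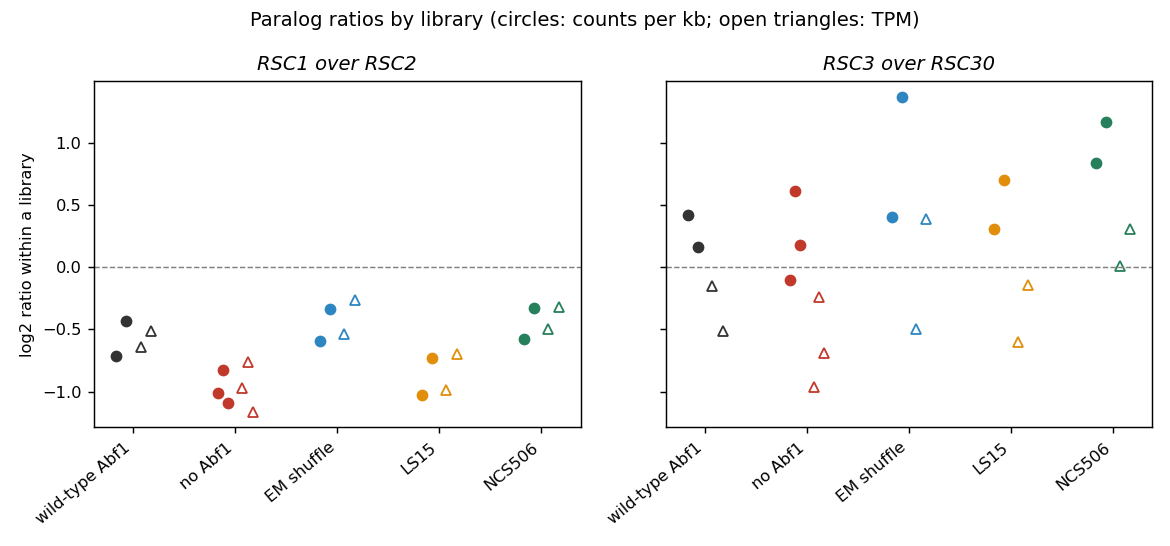
Log2 ratio of RSC1 to RSC2 (left) and of RSC3 to RSC30 (right) within each library, from counts per kilobase (circles) and from TPM (open triangles), by condition. The 3 no Abf1 circles for RSC1 over RSC2 lie from -1.09 to -0.83, below the wild-type circles at -0.71 and -0.43, and for RSC3 over RSC30 the triangles lie below the circles.

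The members did not move as a block over the 11 libraries. Among their 45 pairs Pearson's r of log2 CPM ran from -0.90 (RSC1 and RSC9) to 0.84 (RSC1 and RSC3), with a median of -0.04 and 22 pairs above 0. RSC4 went with RSC1 (r = 0.83) and RSC3 (0.79) and against RSC9 (-0.79). These values describe 11 libraries of 5 conditions that share their depth and scaling. Outside RSC, the 3 protein-coding genes most like RSC4 among 3742 candidates were ARC19 (r = 0.96), NUP57 (0.95) and TRP3 (0.95). Their log2 fold changes in no Abf1 against wild-type Abf1 were -1.66, -0.83 and -3.30. They were picked for following RSC4 over these same libraries, so a fall without Abf1 was part of the choice and is no separate result. RME1, OM14 and STF2 were most like RSC9 (r = 0.97 each) and SBE2, MET7 and BUD27 most like RSC1 (0.94 each).

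Other remodelers were read from fixed lists to place the RSC genes. Without Abf1, 4 of 9 SWI/SNF genes passed, 2 in each direction, with a median log2 fold change of 0.22. Differences between counterparts of the 2 complexes were not tested. SNF2, the motor that corresponds to STH1, was at 0.01 (edgeR adjusted p = 0.976). SWI3, the counterpart of RSC8, fell (-0.76, edgeR adjusted p = 0.0218), SNF12, that of RSC6, rose (0.63, edgeR adjusted p = 0.029), and SNF5, that of SFH1, did not pass (0.49, edgeR adjusted p = 0.0703). The largest changes in the list were TAF14 (-1.17, edgeR adjusted p = 0.00323) and SNF11 (0.78, edgeR adjusted p = 0.0218).

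Of 7 ISWI and CHD genes 3 were lower and none higher, with a median of -0.49, the largest fall being IOC3 (log2 fold change -1.90, edgeR adjusted p = 0.00198). Of 10 INO80 genes 2 were lower (median -0.27), led by ARP5 (-1.79, edgeR adjusted p = 0.00118). Of 10 SWR1 genes 2 were lower and 1 higher (median 0.17), with SWC3 at -1.21 (edgeR adjusted p = 0.024) and BDF1, a bromodomain protein, at 1.18 (edgeR adjusted p = 0.0018). The share that passed was 10% among the RSC members, 14.3% among the other RSC genes and 20% to 44.4% in these lists, against 23.4% of all features. A subunit that complexes share was counted in a single list, and ARP7, ARP9 and RTT102 were counted only among the other RSC genes. The shares thus depend on that assignment. The lists are short, and these shares were not tested against each other.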

How the data were processed

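Each library came as 1 table of 6834 features. The deposited counts are whole numbers and were left without normalization by the authors. Their deposited TPM values, summed over the listed features, come to 8.18% to 14.1% of the TPM scale. A Snakemake pipeline of the authors ran STAR against sacCer3 (R64), followed by RSEM. Versions, the tool that wrote the counts and the use of strand are not given in the sources used here. Conditions came from the labels, and all sample columns were used.

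The main test was the quasi-likelihood F-test of edgeR 4.0.16 (R 4.3.3) with TMM factors, filterByExpr and 1 coefficient per condition, fitted to all 11 libraries, and p-values were adjusted by Benjamini-Hochberg over 5456 features. The common coefficient of variation was 17.1%. Log2 CPM had a prior count of 2. As alternatives, DESeq2 1.42.0, RLE factors, other filters, protein-coding features, limma 3.58.1 on TPM with a pseudocount of 1 or 0.1 before log2, fits of only 2 groups, each library left out and a replicate block were run. Python 3.11.15 searched the R64 sequence of RefSeq, whose locus tags matched 5896 features. The code was tested on simulated data.

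The text names all members, the other RSC genes, upstream neighbours, list genes passing with the largest change each way, counterparts, and the 3 genes most correlated with each member that passed in any comparison (mean count of at least 50). The members and lists were chosen with earlier results of these data known. No 2 libraries of a group agreed within sampling noise. Agreement was closest in no Abf1 (lowest chi-square per degree of freedom 1.31) and looser in the other groups (7.63 for LS15 to 32.8 for EM shuffle). Intervals on counts cover counting error only. Those on log2 fold changes use a normal multiplier of the SE and are narrower than the test's own.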

Additional observations from a re-analysis of the deposited data

How the results depend on the processing

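Size factors of the RLE type, DESeq2, 3 other sets of features and both motif windows left the counts of members called within 1.5 times. Scales and sample sets did not. On log2(TPM + 1) and log2(TPM + 0.1), the median of all features moved by 0.60 and 0.97 for EM shuffle against wild-type Abf1, and by 0.50 or more in the other comparisons of EM shuffle or NCS506 with wild-type Abf1, no Abf1 or LS15. The members called with the 2 pseudocounts were then 8 and 6 for EM shuffle against wild-type Abf1, 7 and 6 for NCS506 against wild-type Abf1, 9 and 9 for EM shuffle against no Abf1, 9 and 9 for NCS506 against no Abf1, 5 and 4 for EM shuffle against LS15, and 0 for no Abf1 or LS15 against wild-type Abf1. RSC9 in EM shuffle against no Abf1 was at 0.22 and 0.30 on these scales, both below the median shifts of 0.66 and 1.07. In fits of only the 2 groups compared, 2 members were called in no Abf1 against wild-type Abf1, 3 in NCS506 against no Abf1, and 0 in LS15 against wild-type Abf1 and in EM shuffle against LS15.

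With each library left out in turn, the members called ranged from 0 to 2 in no Abf1 against wild-type Abf1, 0 to 1 in EM shuffle and in LS15 against wild-type Abf1, 0 to 3 in EM shuffle against no Abf1, 0 to 2 in NCS506 against no Abf1 and 0 to 2 in EM shuffle against LS15. Without wild-type replicate 1 the 1 member called in no Abf1 was RSC9, not RSC4. A group left with 1 library was assumed to vary like the others. The log2 fold change in no Abf1 then ran through 0 for STH1 (-0.14 to 0.14) and RSC8 (-0.14 to 0.02), as did the paralog difference of RSC3 over RSC30 (-0.25 to 0.11). The cause of these changes was not tested, apart from the fewer libraries.

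Replicate numbers are shared by the 4 conditions other than wild-type Abf1 and were not taken as pairing. Same-numbered deviations correlated between 0.18 and 0.37 among the 3 variants and between -0.16 and -0.05 for no Abf1 with a variant. With a replicate block, 2 members (RSC4 and RSC9) remained called in EM shuffle against no Abf1 and RSC1 was not (0.62, adjusted p = 0.0611), 1 (RSC4) in EM shuffle against LS15 and 0 elsewhere. The SE of a member's log2 fold change lay between 0.141 (RSC2) and 0.342 (RSC4), and it holds both the spread between libraries and counting error.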
